A study of Peromyscus californicus with 17 samples.

Results

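The genes described here encode the motile cilia axoneme, the microtubule core of a beating cilium, in the lungs of male *Peromyscus californicus*, the monogamous California mouse. They were taken by name: every row of the expression table whose symbol begins with Dnah, Dnai, Cfap, Drc, Rsph or Tekt followed by a digit, together with *Gas8* and *Foxj1*. The rule found 82 of 27786 genes. RNA sequencing covered 17 animals with 1 library per animal, in 6 bonded (B1 to B6), 6 bond-disrupted (BD1 to BD6) and 5 virgin males (V2 to V6). All were genetically diverse males of stock IS and 12 to 15 months old. Bonded males had lived with a mate for about 4 months. Bond-disrupted males had been paired for the same time, were then taken from the mating cage, and their lungs were collected 7 days later. Virgin males of similar age were group-housed, with 3 per cage by the labels; the sources are not uniform on whether every cage held that number. Housing and mating history changed together between virgin and bonded males, so these cannot be told apart. Animals with the same number came from the same family.

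A motile cilium beats when dynein motors, arranged in outer and inner arms along the microtubule doublets, slide neighbouring doublets against each other. Outer arms drive the beat, inner arms shape it, and the nexin-dynein regulatory complex and the radial spokes carry the control signals. Tektins and many of the proteins named Cfap, for cilia and flagella associated protein, line or brace the doublets. In the lung, such cilia stand on multiciliated cells of the airways and move mucus upwards, and Foxj1 is the transcription factor that switches on their genes. Some paralogs serve the sperm tail instead.

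The deposited values are FPKM, that is fragments per length of gene, scaled to the depth of the library. In column j of the table every value had been divided by the length of the gene j rows above rather than by its own. The lengths were solved from the table and each value was placed on the gene's own length. This left 78 of the 82 axoneme genes with a value in every animal, and 74 reached 1 FPKM in at least 1 animal. *Cfap47*, *Cfap90*, *Cfap144* and *Cfap107* could not be solved. Depth was 15394248 fragments in B4 to 34115992 in B3, up to a common factor that FPKM do not depend on. Markers of the labelled tissue were abundant: *Sftpc*, the surfactant protein of type 2 alveolar cells, averaged 19872 FPKM, *Ager* of type 1 cells 1642 FPKM and *Scgb1a1*, the secretoglobin of club cells, 92786 FPKM. Of 10 testis germ cell markers with solved values, 9 stayed under 1 FPKM in all animals. These are bulk lungs, so fewer ciliated cells and less RNA per ciliated cell cannot be told apart.

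*Foxj1* averaged 29.8 ± 14.4 FPKM (SD, n = 17). In bonded lungs it had a lowest value of 16.6, a median of 24.0 and a highest of 68.8 FPKM. In bond-disrupted lungs these were 20.2, 24.4 and 33.4 FPKM. The virgin animals V2 to V6 had 10.7, 26.5, 54.6, 26.3 and 42.1 FPKM. The groups overlapped: V2 was the lowest and B6 the highest of the 17 animals, 6.46-fold apart, while the bond-disrupted males lay close together.

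The dynein heavy chains are the motors themselves. Of the outer arm chains, *Dnah11* averaged 4.64 ± 1.66 FPKM (SD, n = 17), *Dnah9* 2.89 ± 1.49 and *Dnah5* 1.95 ± 0.639. For *Dnah5* the lowest, median and highest values were 1.07, 1.94 and 3.15 FPKM in bonded lungs, 0.953, 1.75 and 2.47 in bond-disrupted lungs, and 1.26, 2.30, 2.71, 1.73 and 2.56 in V2 to V6. *Dnah9*, found in the distal part of human airway cilia, had the widest span of the outer arm chains, from 1.28 FPKM in BD1 to 7.38 in V4. The levels of *Dnah11* and *Dnah9* overlapped between animals, and so did those of *Dnah9* and *Dnah5*.

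The 7 inner arm heavy chains lay in a narrow band of means, from 2.02 FPKM for *Dnah7* to 3.79 for *Dnah1*, with *Dnah6* at 3.72, *Dnah10* at 3.55, *Dnah3* at 3.44, *Dnah12* at 3.36 and *Dnah2* at 2.53. Neighbours in this order differed by less than their SD between animals, which was 0.685 to 1.52 FPKM. BD1 was the lowest animal for 6 of the 7 chains and BD3 for *Dnah10*. The chains that serve sperm were lower. *Dnah17* averaged 0.876 ± 0.207 FPKM (SD, n = 17) and *Dnah8* at most 0.0143 FPKM in any animal. *Dnah14* averaged 0.135 ± 0.0483 FPKM.

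**Figure D1:**
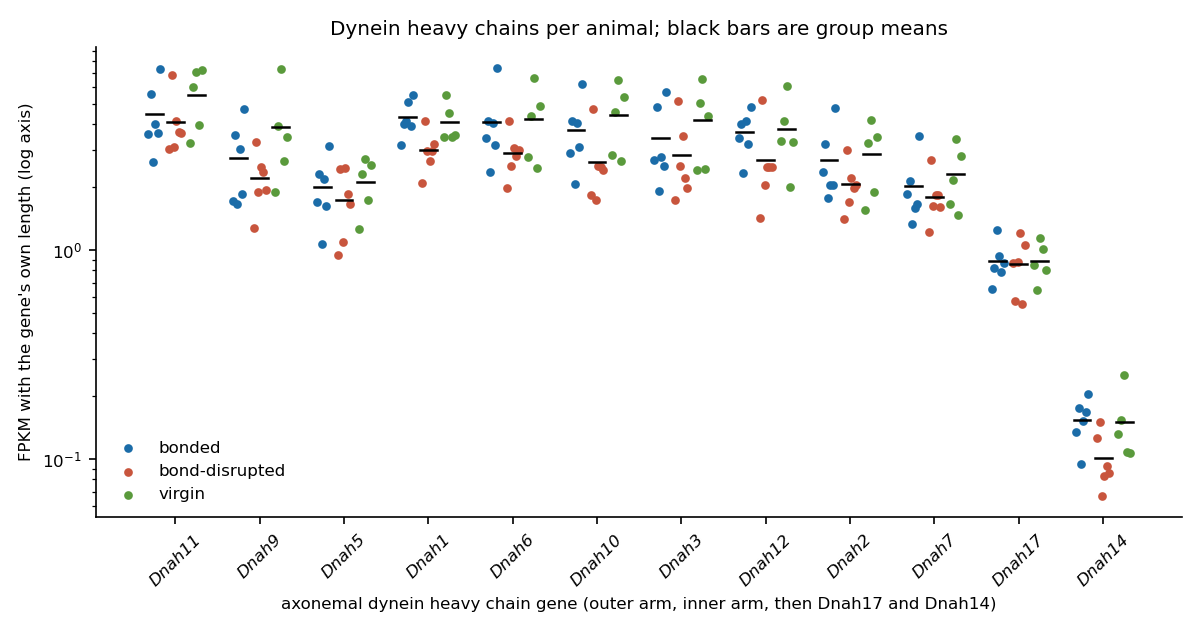
FPKM with the gene's own length, on a log axis, for 12 axonemal dynein heavy chain genes in 6 bonded, 6 bond-disrupted and 5 virgin lungs, 1 point per animal, with group means as black bars. The outer and inner arm chains share a band between 0.953 and 7.40 FPKM, the mean of *Dnah17*, 0.876 FPKM, is below it, and the values of *Dnah14* are below 0.26; *Dnah8*, at 0 in several animals, is not drawn.

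Of the 65 solved axoneme genes that are not heavy chains, 34 had a mean above that of *Dnah11*, the highest heavy chain, per length of gene. The median of the means was 1.81 FPKM for the radial spokes, 3.12 for the tektins, 3.44 for the inner arm heavy chains and 5.34 for the nexin-dynein regulatory complex. The highest gene of each role is named here. Among the intermediate chains, which hold the arms to the doublet, *Dnai7* was highest at 21.5 ± 5.88 FPKM (SD, n = 17), and *Dnai2* of the outer arm averaged 4.86 ± 2.04. *Drc1*, which anchors the nexin-dynein regulatory complex, averaged 19.4 ± 6.10 FPKM, against 5.43 ± 1.84 for *Gas8*, a subunit of the same complex. *Rsph1* of the radial spoke head averaged 13.3 ± 5.47 FPKM and *Tekt1* 10.6 ± 3.91. Levels within a complex were unequal: the lowest *Drc1* value, 12.2 FPKM in BD6, was above the highest *Gas8* value, 10.1 FPKM in V4.

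*Cfap126*, known as Flattop and tied to the placing of basal bodies, was the highest of all axoneme genes at 88.0 ± 35.8 FPKM (SD, n = 17). Its lowest, median and highest values were 46.5, 80.2 and 155 FPKM in bonded lungs and 61.3, 69.2 and 94.8 in bond-disrupted lungs, and V2 to V6 had 49.5, 69.0, 171, 81.0 and 127 FPKM. B6 and V4 were the highest animals and B3 and V2 the lowest. The 43 solved Cfap genes had a median mean level of 4.72 FPKM, and *Cfap20*, a protein of the junction inside the doublet, was second at 35.7 ± 6.59 FPKM. *Cfap97d1* was listed at 0 in every animal, which at these depths allows up to 3 fragments per library. *Rsph6a*, the radial spoke head paralog of the testis, reached at most 0.141 FPKM.

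The axoneme genes were high together in some animals and low together in others. For each gene the mean over 17 animals was subtracted from log2(FPKM + 1), and the differences were averaged over the 74 genes to give a level per animal. From the highest down, the levels were 0.65 in V4, 0.62 in B6, 0.34 in V6, 0.29 in B2, 0.20 in BD2, 0.08 in V3 and 0.04 in B4. The other animals were below 0, from −0.12 in B1 to −0.27 in BD3, −0.33 in B3 and −0.38 in V2. Bonded lungs spanned −0.33 to 0.62 and virgin lungs −0.38 to 0.65, while bond-disrupted lungs spanned −0.27 to 0.20, with 5 of the 6 between −0.27 and −0.14. In V4, 72 of the 74 genes were above their own mean, in B6 70 and in V2 4.

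**Figure D2:**
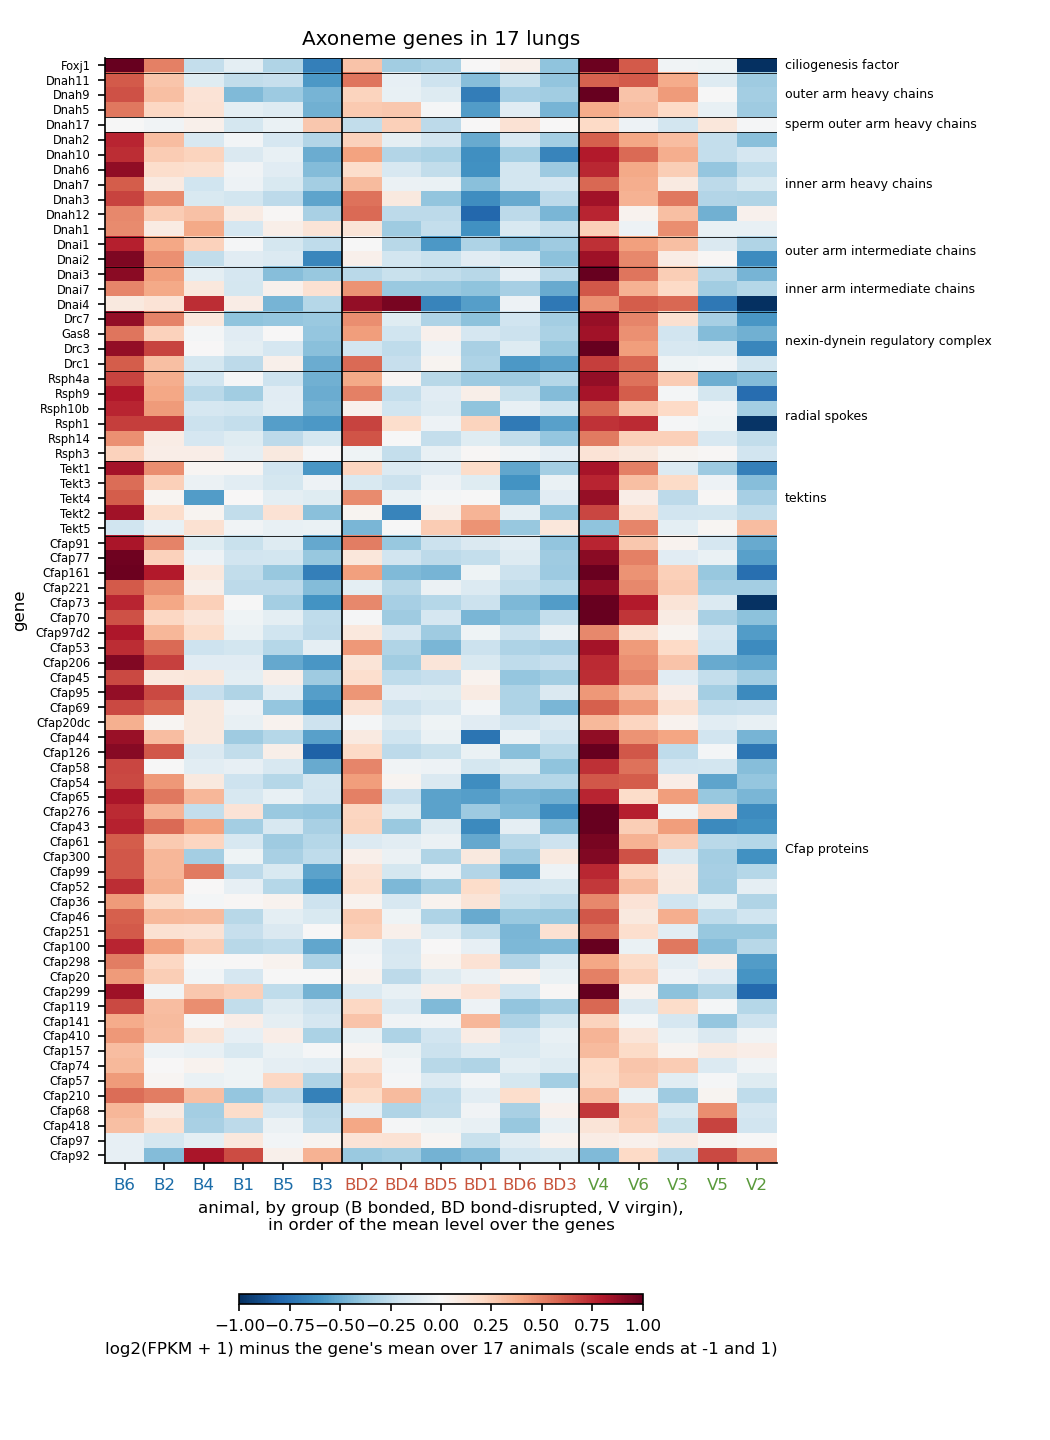
Log2(FPKM + 1) minus the gene's mean over 17 animals (colour, from blue at −1 to red at 1) for the 74 axoneme genes, grouped by role, in columns for the 17 animals ordered within each group by the mean level. The columns of B6 and V4 are red in nearly every row and those of B3 and V2 mostly blue, whatever the role of the gene; *Cfap92*, *Tekt5*, *Dnah17* and *Cfap97* do not follow.

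With group means subtracted, the median Pearson r over the 2701 pairs of axoneme genes was 0.760 (quartiles 0.611 and 0.849), and between axoneme genes and all other tested genes it was −0.022. The value describes these 17 libraries, whose animals include relatives, and genes of one library share its depth. Without V4 and B6 the median r was 0.606. Of the 73 other genes, 37 had an r of at least 0.8 with *Foxj1*. The closest to *Foxj1* were *Dnai2* (r = 0.977), *Cfap77* (0.958) and *Rsph9* (0.947). The genes also varied more than most: their median SD between animals within groups was 0.393 on the log2 scale, against 0.208 over all 15213 genes tested, and 67 of 74 were above that value. *Dnai4*, an inner arm intermediate chain, had the largest SD at 0.67 and *Foxj1* the next at 0.65, while *Cfap97* and *Rsph3* had the smallest at 0.11 each. *Dnai4* was high in BD4 (14.9 FPKM), BD2 (14.1) and B4 (12.7) and low in V2 (2.88), so it ranked the animals differently from *Foxj1* (r = 0.48). Its value in B4 rests on a length settled by the last rule added to the solving, and in 4 other animals its solved values differed from a least-squares estimate by over 0.4 on the log2 scale. Over 73 axoneme genes, 13 of 1241 values differed that far. Among them *Dnai2* was 0.47 above the estimate in V4 and 0.60 above it in V5, and *Cfap126* was 0.41 below it in V2.

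Of the 74 genes, 68 had a median r of at least 0.5 with the others, 2 lay between 0.3 and 0.5 (*Dnah1* at 0.44 and *Cfap418* at 0.40) and 4 were lower. *Cfap92* went against the rest, with a median r of −0.56: it was highest in B4 (4.15 FPKM), V5 (3.64) and B1 (3.60) and had 1.16 FPKM in V4 and 1.76 in B6. *Tekt5*, the tektin of the sperm flagellum, had a median r of −0.35 and a mean of 3.12 FPKM. *Dnah17* of sperm had −0.13. *Cfap97* had a median r of 0.00 and was near constant, from 6.33 FPKM in BD1 to 8.46 in BD4. Both sperm paralogs were detected in every lung.

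Other lists of genes were read beside these. The list of cilia assembly factors mixes genes that fold and load dynein arms in the cytoplasm with axoneme parts such as *Odad1*, *Ccdc39* and *Ccdc65*. Its 22 tested genes had levels from −0.41 in V2 to 0.66 in B6. The list of 58 other axoneme and ciliated cell genes spanned −0.46 in V2 to 0.81 in B6. Both placed V4, B6, V6 and B2 highest, as the axoneme genes did. *Zmynd10*, the highest assembly factor, ranged from 9.04 to 28.0 FPKM, and *Tubb4b*, a tubulin of cilia, from 213 to 475 FPKM. The 15 tested regulators of ciliogenesis other than *Foxj1* spanned −0.23 in V2 to 0.26 in V6, so their lowest animal was that of the axoneme genes too, and V4 was next to the highest (0.23). BD6 followed at 0.22, though its axoneme level was −0.26. One regulator, *Rfx4*, had 9.88 FPKM in BD6 and at most 0.0559 FPKM in any other animal.

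Markers of other lung cells moved with the axoneme genes or against them. With group means subtracted, the axoneme level had a Pearson r of 0.63 with that of airway secretory markers and 0.44 with cardiac markers. It was −0.88 with type 1 and −0.59 with type 2 alveolar markers. The 10 tested airway secretory markers were lowest in V2 (−1.50) and highest in B6 (1.32), but in BD2, the highest of its group for axoneme genes, they were the lowest of that group (−0.71). Their summed FPKM ranged from 49798 to 132261 in bonded, 62081 to 119175 in bond-disrupted and 53948 to 173322 in virgin lungs. The 8 type 1 alveolar markers were lowest in B6 (−0.50), V4 (−0.36) and BD2 (−0.32) and highest in V2 (0.39), with −0.03 in V6. Their summed FPKM were 2525 to 4247, 3083 to 4959 and 2845 to 4267 in the same order of groups. The 8 type 2 markers were lowest in B6 (−0.40) and highest in BD6 (0.71), with sums of 15755 to 26603, 15901 to 33960 and 18956 to 31415 FPKM. Cardiac muscle markers were highest in B6 (1.40) and lowest in B3 (−1.34). The cardiac sums were 52.8 to 547 FPKM in bonded, 92.3 to 306 in bond-disrupted and 128 to 407 in virgin lungs. No marker of these 4 lists was at 0 in all animals. Basal cell markers ranged from −0.38 to 0.51 and thymus and lymph node markers from −0.88 to 0.76, both lowest in BD2. Their part in the axoneme levels was not tested.

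**Figure D3:**
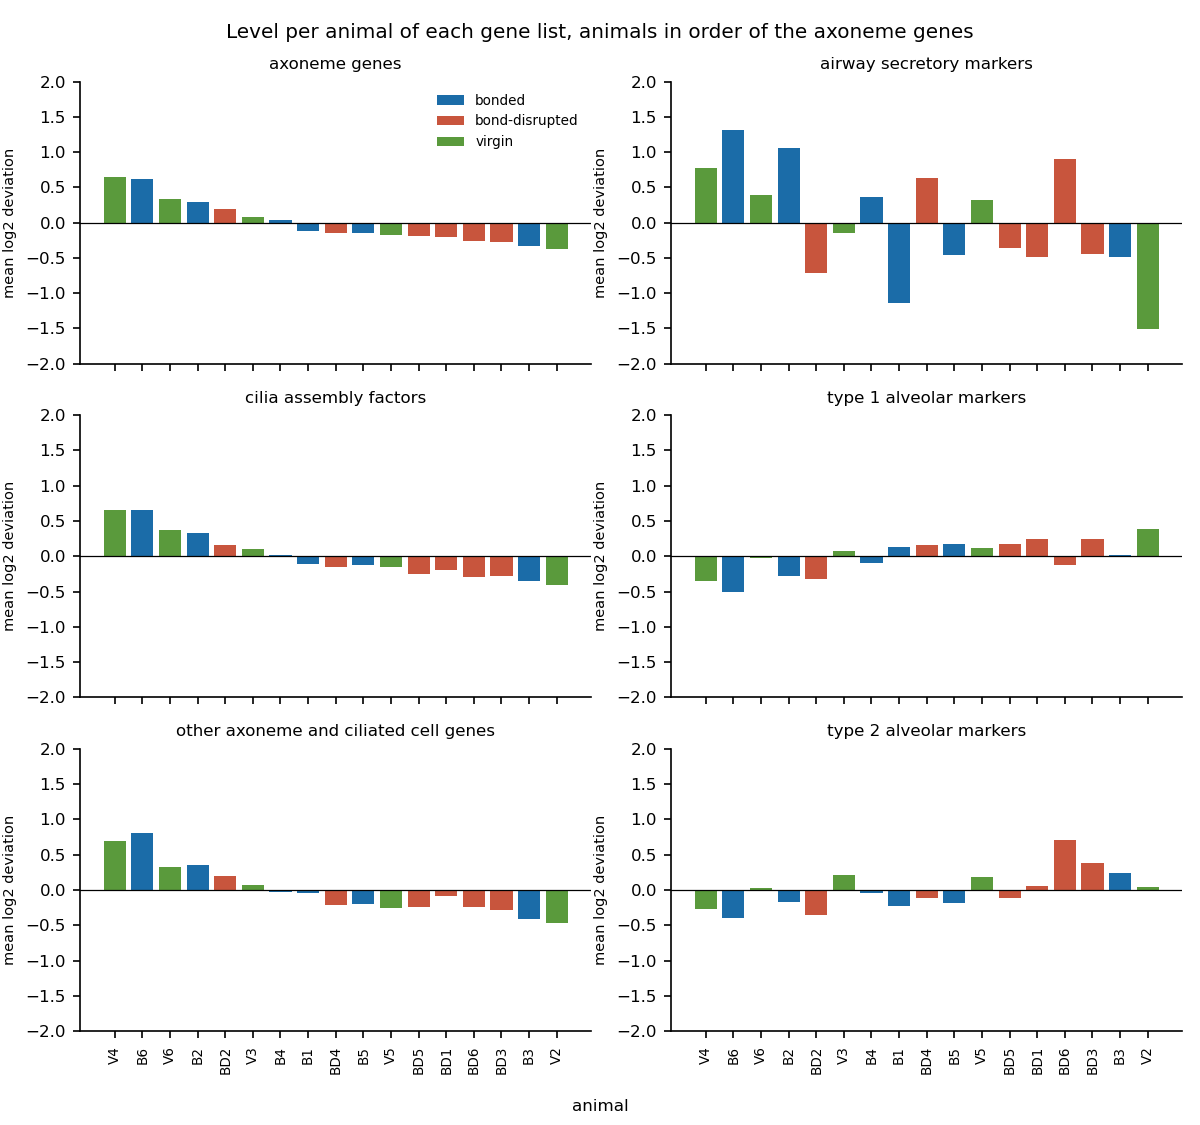
Level per animal (mean over the genes of a list of log2(FPKM + 1) minus the gene's mean over 17 animals) for 6 gene lists, with the animals in the same order in each panel, from the highest axoneme level to the lowest, and bars coloured by group. Cilia assembly factors and other ciliated cell genes step down in nearly the same order as the axoneme genes. Airway secretory markers span a wider range, from −1.50 to 1.32. Type 1 alveolar markers run mostly the other way, lowest in B6, V4, BD2 and B2 and highest in V2. They are at −0.03 in V6, which has the third highest axoneme level.

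The first comparison asked whether losing the mate was followed by another axoneme program than staying with it. Axoneme genes were mostly lower in bond-disrupted than in bonded lungs. The mean axoneme level differed by −0.20, less than its SD between animals within groups, 0.32. For some genes the difference was larger than their own SD, among them *Dnah1* (−0.40 against 0.24) and *Dnai1* (−0.48 against 0.34). Of the 74 genes, 70 had a lower mean of log2(FPKM + 1) in bond-disrupted lungs, with a median log2 difference of −0.20 against 0.01 over all tested genes. None passed the test, limma with an adjusted p under 0.1 and a fold of at least 2, and neither did any of the 15213 genes (0%). At an unadjusted p under 0.05 there were 898 genes (5.9%), and 4 axoneme genes, all lower, against 3.08% of all genes lower and 2.83% higher. No axoneme gene had values that did not overlap between these groups, against 0.27% of all genes. By limma voom the number of genes past the test was also 0, and 7 of 76 axoneme genes had an unadjusted p under 0.05, against 6.23% of the 16490 genes of that fit. The lower means rest in part on B6: without it the median difference was −0.06 and 58 of 74 were lower, and without B2 it was −0.13. The count of axoneme genes at an unadjusted p under 0.05 was 2 without B6, 8 without B1 and 9 without B3 or BD2, while the share of all genes was 5.05%, 7.68%, 6.36% and 7.80% in the same order.

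*Dnah1*, an inner arm chain, differed most by p. Its lowest, median and highest values were 3.18, 4.07 and 5.51 FPKM in bonded and 2.09, 2.99 and 4.13 in bond-disrupted lungs, so the upper part of one group overlapped the lower part of the other. The log2 difference was −0.40 (SE 0.13, adjusted p 0.805). For *Dnai1*, an outer arm intermediate chain, the values were 2.68, 3.75 and 6.53 against 1.94, 2.49 and 3.37 FPKM, a difference of −0.48 (SE 0.19, adjusted p 0.805). *Cfap92*, which did not follow the other axoneme genes, had 1.17, 2.38 and 4.15 against 1.11, 1.28 and 1.60 FPKM, a difference of −0.56 (SE 0.21, adjusted p 0.805). Of the 6 bond-disrupted males, 4 were below the lowest bonded value for *Dnah1*, 5 for *Dnai1* and 1 for *Cfap92*. All 7 inner arm heavy chains had negative differences, from −0.40 to −0.09, as did the 3 outer arm chains, the 4 genes of the nexin-dynein regulatory complex and the 6 radial spoke genes. *Foxj1* differed by −0.20 and *Gas8* by −0.11. When 1 animal was left out, *Foxj1* was between −0.36 and 0.042 (without B6), and *Gas8* between −0.21 (without BD2) and −0.01 (without B6). Of the 22 genes of the assembly list, 22 were lower and 0 passed the test, with a median difference of −0.25. Of the 15 regulators of ciliogenesis, 9 were higher and 6 lower, with a median of 0.04 and 0 past the test. Other lists moved in the same comparison: all 8 type 2 markers were higher in bond-disrupted lungs (median 0.14), 6 of 8 type 1 markers were higher (0.20), and 8 of 10 secretory (−0.14) and 7 of 7 cardiac markers (−0.19) were lower. None of these passed the test, and their part in the axoneme difference was not tested. Of the 6 pairs of bonded and bond-disrupted males with the same number, 5 had the lower axoneme level in the bond-disrupted male, and BD3 was above B3.

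The second comparison, of virgin with bonded males, asked about having a mate. Their axoneme genes were close: the median difference was 0.05 against 0.01 over all genes, with 48 of 74 higher in virgin lungs. No gene passed the test, neither among the axoneme genes nor among all 15213 (0%), also by voom. At an unadjusted p under 0.05 there were 534 genes (3.51%; 2.04% higher and 1.47% lower in virgin lungs) and 0 axoneme genes. No axoneme gene had groups that did not overlap, against 0.467% of all genes. The 3 smallest p-values belonged to *Cfap157* (difference 0.15, SE 0.08), *Cfap68* (0.25, SE 0.16) and *Cfap141* (−0.19, SE 0.14), each with an adjusted p of 1. *Cfap157* acts in the sperm flagellum, and the other pair are proteins inside the doublet. *Cfap68* was 2.05 FPKM at the lowest, 2.79 at the median and 3.85 at the highest in bonded lungs and 2.43, 2.48, 5.32, 4.32 and 3.60 FPKM in V2 to V6, with only V4 and V5 above the bonded range. Its difference was 0.13 without V4, and that of *Cfap141* was −0.13 without V5. Type 2 markers were higher in virgin lungs for 7 of 8 genes (median 0.11) and type 1 markers for 6 of 8 (0.11). Secretory markers were lower for 6 of 10 genes (−0.02) and cardiac markers for 5 of 7 (−0.02). None of these passed the test, and their part was not tested. The sign of the median turned on single animals: it was −0.10 without V4, −0.02 without V6, −0.03 without B3, 0.18 without B6 and 0.17 without V2. It was 0.10 without B2, 0.13 without V5, and 0.01 without B1 and without B5. Without V4, 16 of 74 were higher, and without B3 28; 1 axoneme gene had an unadjusted p under 0.05 without B6 (3.48% of all genes), without V2 (3.20%) and without V4 (5.77%).

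The third comparison set virgin against bond-disrupted males. Of the 74 axoneme genes, 69 were higher in virgin lungs, with a median log2 difference of 0.26 against 0.00 over all genes. None passed the test, and neither did any of the 15213 (0%), also by voom. The count at an unadjusted p under 0.05 was 646 for all genes (4.25%) and 8 for axoneme genes, all higher, against 2.18% of all genes higher and 2.06% lower. Virgin and bonded values are each set against the same bond-disrupted animals, so this comparison and the first share samples. The difference rested in part on V4: without it the median was 0.12 and 55 of 74 were higher. The order of the comparisons by size also turned on single animals: the median was further from 0 here than in bond-disrupted against bonded lungs, but closer to 0 without V4, V6 or B3 (0.12, 0.20 and 0.26 against −0.20, −0.20 and −0.29). With relatives of the same number as a replicate block the count at an unadjusted p under 0.05 was 4 (3.91% of all genes), and with quantile normalization 5 (3.96%). It was 2 without V4 (5.00% of all genes), 21 without V2 (4.75%), 16 without BD2 (7.11%) and 15 without V5 (4.45%). It was 3 without V6 or BD1, 4 without BD3, BD5 or BD6, 5 without V3 and 12 without B6, with 3.02% (V3) to 4.68% (BD6) of all genes in these fits.

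*Cfap157* was the 1 axoneme gene whose virgin and bond-disrupted values did not overlap, against 0.263% of all genes. V2 to V6 had 1.83, 1.74, 2.35, 1.86 and 2.07 FPKM, and the bond-disrupted males had 1.32, 1.48 and 1.73 FPKM as lowest, median and highest. The gap between the groups was smaller than the spread within either, and the difference was 0.24 (SE 0.08, adjusted p 0.944). *Dnai1* had 2.57, 4.40, 6.27, 2.97 and 4.83 FPKM in V2 to V6, a difference of 0.52 (SE 0.20, adjusted p 0.944). *Dnah1* had 3.48, 5.49, 4.55, 3.46 and 3.54 FPKM, a difference of 0.35 (SE 0.14, adjusted p 0.944). For both, the lowest virgin values lay inside the bond-disrupted range. The 7 inner arm heavy chains had differences of 0.22 to 0.56, and *Cfap141* had the lowest of all, −0.12. *Foxj1* differed by 0.17, and when 1 animal was left out it ranged from −0.062 (without V4) to 0.50. For the assembly list, 22 of 22 genes were higher, with a median of 0.26 and 0 past the test. Of the 15 regulators of ciliogenesis, 7 were higher and 8 lower, with a median of −0.01 and 0 past the test. Of the type 2 and type 1 markers 3 of 8 each were higher in virgin lungs, of the secretory markers 6 of 10 and of the cardiac markers 6 of 7 (median 0.25), with 0 past the test, and their part was not tested.

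**Figure D4:**
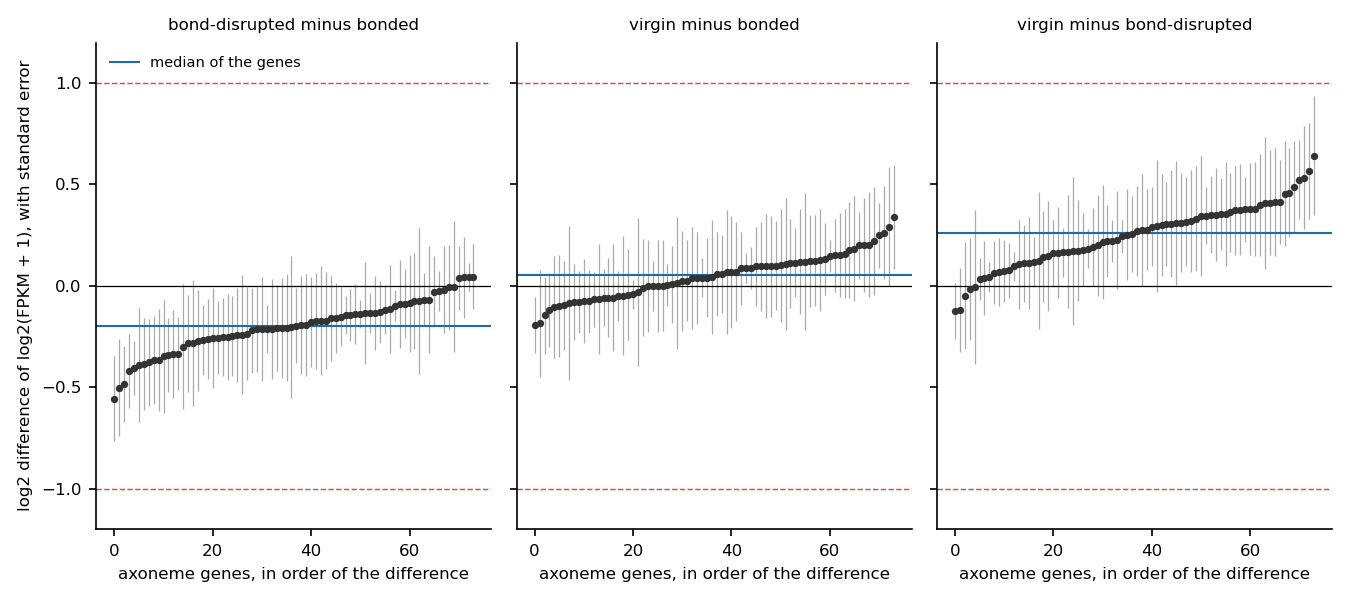
Log2 difference of mean log2(FPKM + 1), with its standard error, for the 74 axoneme genes in each of 3 comparisons, sorted within each panel; the blue line is the median of the genes (−0.20, 0.05 and 0.26) and the dashed lines mark a fold of 2. Most points lie below 0 in the first panel and above 0 in the third, and every point lies inside the dashed lines.

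The length that divides each value decided what the axoneme genes seemed to do. With the FPKM as deposited, 2 of them passed the test in virgin against bonded lungs. *Gas8* had a log2 difference of −4.29 (SE 0.81, adjusted p 0.0328) and *Cfap298*, a factor of dynein arm assembly, one of 4.04 (SE 0.76, adjusted p 0.0326). With their own lengths the differences were −0.00 (SE 0.23) and −0.08 (SE 0.15), each with an adjusted p of 1. As deposited, *Gas8* had 55.9 FPKM or more in B1 to B6 and 10.5 FPKM or less in the virgin animals. On its own length it had 3.75 to 8.02 FPKM in bonded, 3.98 to 7.29 in bond-disrupted and 3.47, 4.45, 10.1, 3.59 and 7.53 FPKM in V2 to V6, and the groups overlapped. The value of V4 rests on 1 length that was settled by the last rule added to the solving, and it was 0.74 above the least-squares estimate on the log2 scale. Over the 78 solved genes the median SD within groups was 1.41 as deposited and 0.387 on own lengths.

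**Figure D5:**
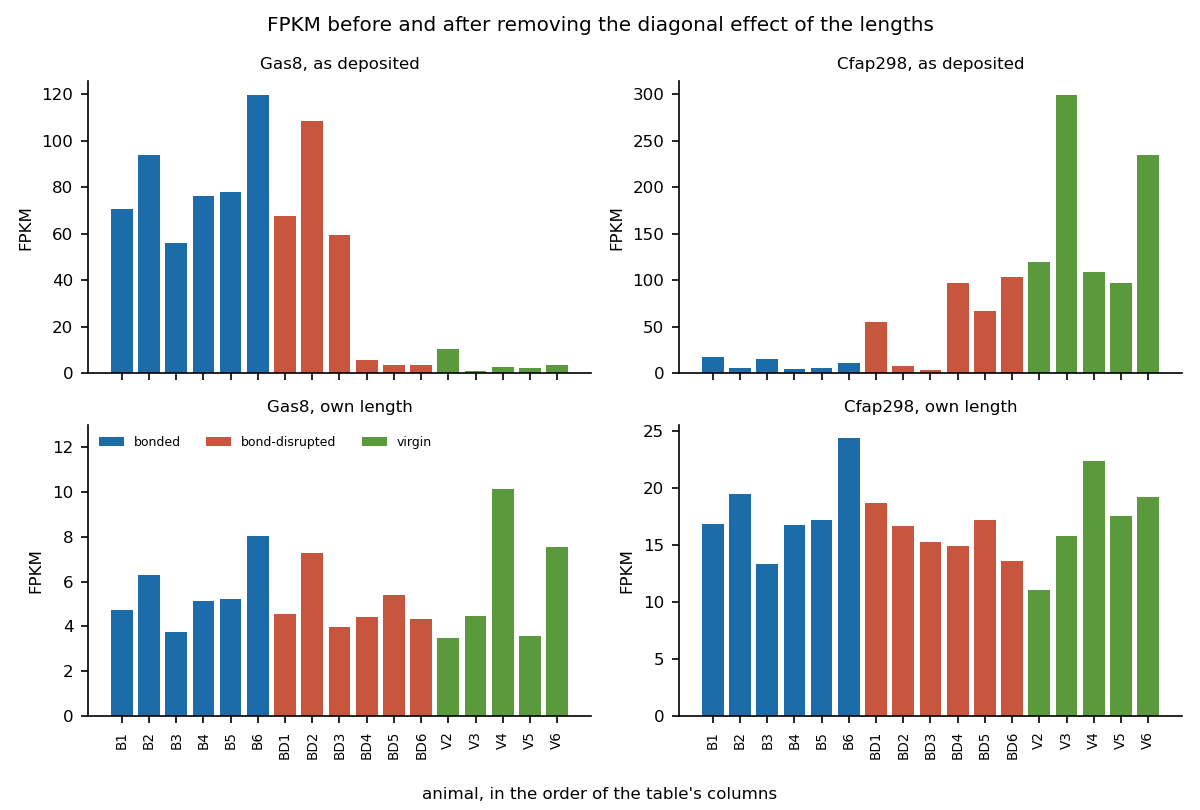
FPKM of *Gas8* and *Cfap298* per animal, in the order of the table's columns, as deposited (top) and with the gene's own length (bottom), with bars coloured by group. In the upper panels the steps fall inside the bond-disrupted group, between BD3 and BD4 for *Gas8* and after 55.4, 7.10 and 3.71 FPKM in BD1 to BD3 for *Cfap298*, and they are absent below, where *Gas8* lies between 3.47 and 10.1 FPKM and *Cfap298* between 11.1 and 24.3 FPKM.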

How the data were processed

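The authors isolated total lung RNA, made directional libraries and deposited 1 table of FPKM, 1 column per animal, with 0 columns left over. Per the labels, the submitters' processing notes name Trim Galore 0.4.5, STAR 2.7.2, SAMtools 1.5 and featureCounts of Subread 1.5.3. The genome build is not given in the sources used here. The paper's methods name limma, a false discovery rate of 0.1 and a fold of at least 2.

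The deposited FPKM were divided by shifted lengths. In column j, 4003 low values lay j rows below a small RNA gene, and 98.9% were whole counts with that gene's RefSeq length, within 0.01. Of 2297 low values of the small RNA genes themselves, 3.96% were whole with their own length. Why the lengths are shifted is not known. Depths were solved to make the lowest of the shifted values whole, which favours the 98.9%. They are known up to a factor of 2, as fragments or reads. Lengths were then solved as those at which the fragments of a diagonal were whole, each compared with a least-squares fit of the whole table. Of 27787 lengths 26630 were settled, and 684 were not. All 1501 settled small RNA lengths equalled RefSeq, but the solving had been given those RefSeq lengths, so the match was not an independent check. Summed fragments were 0.971 to 1.03 of the depth. Of the 78 solved axoneme genes, 48 had whole fragments and 29 multiples of 0.5 in at least 75% of their values above 0, and 30 had whole fragments in every animal. Multiples of 0.5 can arise when a fragment is shared between overlapping genes, and overlap may change their level. The 4 unsolved axoneme genes were left out.

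The solving was revised several times, and versions were compared with the axoneme genes' values in view, on how many of them were solved, on the small RNA lengths and on the summed fragments. The version kept solved the most axoneme genes. Of its rules, 2 were added after looking at genes still unsolved: no upper limit on the length of symbols that RefSeq lists more than once, and, last, a rule that settles a length at which 7 or more values are all whole. The last rule settled 44 lengths, and the values of *Gas8* in V4 and *Dnai4* in B4 rest on it.

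A single limma model of all 3 groups (limma 3.58.1, R 4.3.3) was fitted to log2(FPKM + 1) of the 15213 genes that reached 1 FPKM in any animal, with two-sided tests and Benjamini-Hochberg adjustment over all genes. The scripts were tested on simulated data. Alternatives changed the pseudocount, filter, scaling, fit, thresholds, lengths and animals. Named genes were *Foxj1*, *Gas8*, all heavy chains, the highest gene of each role, the 3 smallest p-values per comparison and the 2 largest and smallest SDs; other genes were named after their values were seen. The genes, lists and rules were chosen with earlier results of these data known.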

Additional observations from a re-analysis of the deposited data

Results flagged for a closer look

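Groups of 5 or 6 animals were searched for 1 animal far from the others by Dixon's test, over 28 results and 84 groups. Chance flags about 1 in 20 groups, and 5 were found. Of these, 4 concern BD2, and because axoneme genes vary together they are not separate events. The axoneme level of BD2 was 0.199, against −0.144 in the next bond-disrupted male. *Dnah11* in BD2 was 2.97 on the log2(FPKM + 1) scale, or 6.85 FPKM, against 3.03 to 4.13 FPKM in the other bond-disrupted males. *Dnah10* in BD2 was 2.52 on that scale, or 4.74 FPKM, against 1.75 to 2.53 FPKM. *Dnai7* in BD2 was 4.90 on that scale, or 28.8 FPKM, against 14.4 to 16.3 FPKM. *Cfap157* in B6 was 1.73 on that scale, or 2.33 FPKM, against 1.43 to 1.66 FPKM in the other bonded males.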

How the results depend on the processing

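With own lengths, 0 axoneme genes were called in each of the 3 comparisons under all 14 other settings and in all 17 fits that left out 1 animal. Over all genes, leaving out 1 animal gave 0 to 1 calls in bond-disrupted against bonded and in virgin against bonded lungs (1 without B4) and 0 in the third comparison. As deposited, the counts over all genes were 40, 113 and 35, with 2 axoneme genes in virgin against bonded lungs, and the correlation among axoneme genes was 0.0653. By that table the sign also turned for *Dnah1* (bond-disrupted minus bonded, 1.29), *Cfap157*, *Cfap68* and *Foxj1* (virgin minus bonded, −0.47, −0.18 and 0.067), and *Dnai1* and *Gas8* (virgin minus bond-disrupted, −0.25 and −2.24). That table also holds the genes whose lengths were not solved.

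With own lengths, the median differences ranged from −0.24 to −0.15, 0.02 to 0.07 and 0.23 to 0.33 over 12 settings, and from −0.29 to −0.06, −0.10 to 0.18 and 0.12 to 0.39 over the fits without 1 animal. Least squares, which uses no whole fragments and so does not depend on the rules of the solving, gave −0.15, 0.04 and 0.23. Leaving out the genes that rest on the last length rule gave −0.20, 0.06 and 0.27 over 72 genes; this, the level per animal under other settings and the correlation without V4 and B6 (0.606) were added after seeing the data. Leaving out 1 animal gave a correlation of 0.703 to 0.792. Over the 12 settings, *Cfap157* was 0.13 to 0.23 and *Cfap141* −0.23 to −0.10 in virgin minus bonded. In virgin minus bond-disrupted *Cfap157* was 0.22 to 0.38. The sign of *Gas8* turned by voom (virgin minus bonded, 0.019) and by least squares (virgin minus bond-disrupted, −0.011); the cause was not tested. Without 1 animal, *Foxj1* ranged from −0.36 to 0.042 in bond-disrupted minus bonded (turned without B6), ranged from −0.27 to 0.30 in virgin minus bonded (turned without B2, B6 or V2) and from −0.062 to 0.50 in virgin minus bond-disrupted (turned without V4). *Gas8* ranged from −0.20 to 0.13 in virgin minus bonded (turned without B2, B6, V2, V3 or V5) and from −0.089 to 0.24 in virgin minus bond-disrupted (turned without V4).

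The number in the labels marks relatives, mostly siblings. Of 16 same-numbered pairs across groups, 7 had deviations correlated above 0.1 (−0.334 to 0.411), against 19 of 80 other pairs. Between bonded and bond-disrupted males it was 5 of 6 (0.051 to 0.411) against 5 of 30, between bonded and virgin males 2 of 5 against 8 of 25, and between bond-disrupted and virgin males 0 of 5 against 6 of 25. The block was left out of the values given because not every such pair was above 0.1 in any comparison. That rule does not remove the family design, so the values given treat relatives as unrelated animals. Between bonded and bond-disrupted males the median r was 0.176 for same-numbered pairs, against −0.045 for other pairs. With the replicate block, 0 genes were called in each comparison, the medians were −0.20, 0.02 and 0.23, and 4, 0 and 4 axoneme genes had an unadjusted p under 0.05, against 4, 0 and 8 without it. Over the other settings with own lengths these counts were 4 to 7, 0 and 5 to 8. Depth limits only the lowest genes: *Dnah8*, *Cfap97d1* and *Rsph6a* had too few fragments to compare groups.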
